A study of Mus musculus with 9 samples.

Results

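The B cell receptor signalling genes described here were 9 of the 55322 genes in the table, namely *Cd79a*, *Cd79b*, *Cr2*, *Blk*, *Lyn*, *Syk*, *Blnk*, *Btk* and *Plcg2*. They were taken by gene symbol, and each symbol had 1 row. The RNA came from wild-type C57BL/6 mice in 3 groups of 3 libraries. CD11b- B cells and CD11b+ B cells were sorted from the bone marrow (BM) 48 h after an intraperitoneal injection of lipopolysaccharide (LPS, 5 mg/kg), which comes from the outer membrane of gram-negative bacteria. Peritoneal macrophages (PMs), sorted as CD11b+F4/80+ cells, came from naive mice. CD11b is the integrin chain encoded by *Itgam* and is carried by most myeloid cells. Before the sort, BM cells bearing CD3, CD4, CD8, Gr-1, NK1.1 or TER119 were depleted. The groups served to ask how far B cells with this myeloid surface marker differ from B cells without it and from macrophages. The PM libraries differed from the B cell libraries in cell type, tissue and LPS treatment at once, so these factors cannot be told apart. The labels do not name the mouse behind each library. The study gives SD for biological and SEM for technical replicates and drew the FPKM of these groups with SD. By that convention the libraries are biological replicates, but the study does not state that each came from a separate mouse. Whether a CD11b- and a CD11b+ library shared a mouse is not stated either.

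The B cell receptor is a membrane immunoglobulin paired with the CD79A and CD79B chains, whose cytoplasmic tails carry tyrosine-based activation motifs (ITAMs). Antigen binding lets Src-family kinases such as LYN and BLK phosphorylate these tails, and SYK docks on them. SYK phosphorylates the adaptor BLNK, which brings BTK and PLCG2 together, and PLCG2 then produces the messengers for calcium release and protein kinase C. CR2 (CD21), which binds complement-coated antigen as part of the receptor's coreceptor complex, lowers the amount of antigen needed. Macrophages use LYN, SYK, BTK and PLCG2 as well, behind Fc receptors and other receptors that signal through the ITAM adaptors encoded by *Fcer1g* and *Tyrobp*.

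On GRCm38, with the gene models of GENCODE M21, the receptor chains *Cd79a* and *Cd79b* lie at chr7:24897381-24902197 on the plus strand and at chr11:106311341-106314762 on the minus strand. *Cr2* lies at chr1:195136811-195176716 on the minus strand. The kinase genes lie at chr14:63372836-63417037 (*Blk*, minus strand), chr4:3678115-3813122 (*Lyn*, plus strand), chr13:52583173-52648792 (*Syk*, plus strand) and chrX:134542336-134583570 (*Btk*, minus strand). *Blnk* is at chr19:40928927-40994535 on the minus strand, and *Plcg2*, which encodes the phospholipase, is at chr8:117498291-117635142 on the plus strand. Opposite-strand genes in the table overlap *Lyn* (3 genes, up to 8.98 FPKM), *Btk* (1 gene, up to 5.45 FPKM) and *Plcg2* (1 gene, at 0 in every library). The sources used here do not say whether counting used strand, so reads from these overlaps could belong to either gene. Values are in FPKM, reads scaled to exon length and to the library's reads on genes, which allows levels to be compared between genes per length.

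The sequences before the RefSeq start sites of 4 genes are shown because they contrast a pair read at under 2% of the B cell level in PMs (*Cd79a* and *Cr2*) with a pair read at over 20% of it (*Btk* and *Plcg2*). Promoter windows from RefSeq on GRCm38.p6 matched 6 of the 9 genes, and *Cd79b*, *Blk* and *Lyn* were not matched. Each line reads 5' to 3' on the gene's strand, within the 250 bases before the start site. Capitals mark the ETS core GGAAGT on either strand, the octamer ATTTGCAT and the E-box CANNTG. For *Cd79a* the 134 bases shown end where GENCODE begins its first exon. The *Btk* bases lie inside the GENCODE gene, which reaches to 134583570, so they are upstream of the RefSeq start only.
Cd79a, chr7:24897247-24897380, plus strand: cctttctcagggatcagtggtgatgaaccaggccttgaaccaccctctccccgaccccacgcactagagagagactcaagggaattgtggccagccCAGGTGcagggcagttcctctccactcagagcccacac
Cr2, chr1:195176720-195176969, minus strand: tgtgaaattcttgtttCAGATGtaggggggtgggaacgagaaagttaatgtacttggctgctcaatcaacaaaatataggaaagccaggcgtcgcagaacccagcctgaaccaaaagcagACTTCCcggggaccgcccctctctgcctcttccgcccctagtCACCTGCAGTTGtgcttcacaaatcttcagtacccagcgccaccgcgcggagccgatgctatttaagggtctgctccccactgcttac
Btk, chrX:134583141-134583390, minus strand: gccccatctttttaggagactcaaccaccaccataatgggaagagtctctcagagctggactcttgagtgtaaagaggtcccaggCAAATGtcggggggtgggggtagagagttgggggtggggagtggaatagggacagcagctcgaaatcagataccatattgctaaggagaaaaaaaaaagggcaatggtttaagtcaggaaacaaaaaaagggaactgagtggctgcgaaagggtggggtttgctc
Plcg2, chr8:117498025-117498274, plus strand: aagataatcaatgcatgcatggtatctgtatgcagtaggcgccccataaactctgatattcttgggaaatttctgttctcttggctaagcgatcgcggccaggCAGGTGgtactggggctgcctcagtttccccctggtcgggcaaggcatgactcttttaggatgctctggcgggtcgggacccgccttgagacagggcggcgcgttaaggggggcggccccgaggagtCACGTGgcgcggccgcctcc

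The motifs were chosen after these sequences had been seen, and they were searched on both strands over each whole 250-base window. No relation between a motif and the level of a gene was tested. GGAAGT was found in *Cd79a* at position -54, past the end of the bases shown, in *Cr2* at -130 and in *Blnk* at -201, counted back from the start site of RefSeq. The *Blnk* window, the upstream window of *Syk*, the last 116 bases of the *Cd79a* window and 29 bases of the downstream *Syk* window lie in exons of the GENCODE models. The matches in *Blnk* and *Cd79a* are therefore inside those transcripts and not upstream of them. GGAAGT was in neither *Btk* nor *Plcg2*, nor in either of the 2 windows of *Syk*, and 19.7% of all 32851 promoter windows held it. The octamer, which Oct factors bind in immunoglobulin promoters, was found in *Blnk* alone (at -130), against 1.6% of all windows. An E-box was in every window of these genes and in 66.2% of all windows. TATAAA, found in 12.4% of all windows, was in none of them. GC content ran from 47.6% in *Blnk* and in the downstream window of *Syk* to 71.6% in the upstream window of *Syk*, which held 27 CpG dinucleotides, with medians of 52.4% and 6 over all windows.

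The 9 libraries held between 18014658 and 35251215 reads on genes, so that a gene with no read in a group could still stand for 3 reads, by counting error only. The labels were read against marker genes. The summed FPKM of 4 B cell markers (*Ms4a1*, *Pax5*, *Cd22* and *Ebf1*) lay between 652 and 904 in CD11b- B cells, 553 and 709 in CD11b+ B cells, and 5.55 and 8.25 in PMs. *Itgam* itself was at 0.400, 0.251 and 0.869 FPKM in CD11b- libraries, 1.92, 1.31 and 1.51 in CD11b+ libraries and 358, 254 and 251.4 in PM libraries. In CD11b+ libraries 1, 2 and 3, the 10 neutrophil markers such as *S100a8* summed to 653, 1579 and 215 FPKM, against 1.76 to 2.90 in CD11b- libraries. All 10 were higher in CD11b+ B cells by mean, 3 of them past the test, and none was at 0 in every library of either group. CD11b- library 3 stood apart in 8 B cell precursor markers, whose sum was 1390 there against 413 and 410 in the other CD11b- libraries. In CD11b+ libraries 1, 2 and 3 the sum was 302, 342 and 625, so library 3 was the highest of that group too.

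**Figure D1:**
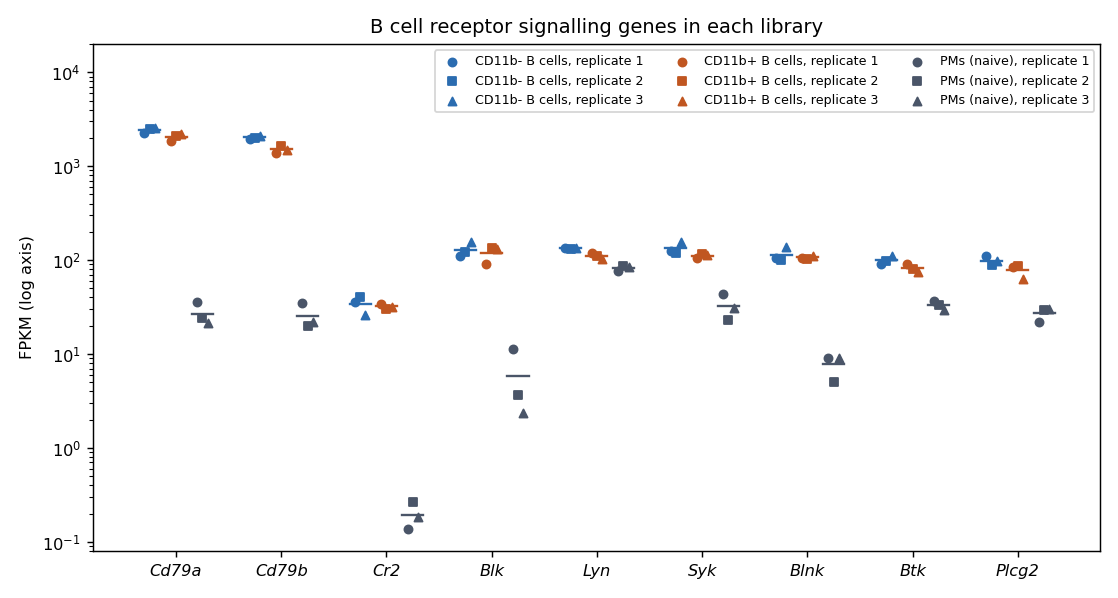
Level of each of the 9 genes in each of the 9 libraries (FPKM, log axis), with a symbol for each replicate and a short line for each group mean, for CD11b- B cells, CD11b+ B cells and PMs. The B cell groups lie close together for every gene, *Cd79a* and *Cd79b* stand highest at 1374 to 2579.7 FPKM in B cells, and *Lyn* shows the smallest distance to PMs.

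The transcripts of the receptor's signalling chains were among the most abundant in both B cell groups. *Cd79a* was at 2249.9, 2473 and 2579.7 FPKM in the 3 CD11b- libraries, 1848, 2097 and 2207 in the 3 CD11b+ libraries, and 35.4, 23.9 and 21.6 in the 3 PM libraries. By group mean it ranked 10 among all genes in CD11b- B cells and 16 in CD11b+ B cells. Its partner *Cd79b* was at 1966, 1979 and 2115 FPKM in CD11b- B cells, at 1374, 1646 and 1502 in CD11b+ B cells, and at 34.8, 19.9 and 22.0 in PMs, with ranks of 17 and 20 in the B cell groups. For both genes every CD11b+ library lay below every CD11b- library, and every PM library lay far below both.

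The coreceptor gene *Cr2* was the lowest of the 9 in all 3 groups. It was read at 35.6, 40.6 and 25.9 FPKM in CD11b- libraries and at 34.0, 30.2 and 32.0 in CD11b+ libraries, with the CD11b+ values inside the CD11b- range. PM libraries had 0.136, 0.265 and 0.183 FPKM, from 113 reads over the group.

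Of the Src-family kinase genes, *Blk*, whose product is largely restricted to the B lineage, was at 112, 121 and 156 FPKM in CD11b- libraries and 91.9, 134 and 131 in CD11b+ libraries. In PMs it was at 11.3, 3.68 and 2.37 FPKM, so the first PM library was set apart from the other two. *Lyn*, which serves both activation and inhibition in B cells and is used by myeloid cells, was at 135, 130.4 and 133 FPKM in CD11b- B cells and 118, 111 and 102 in CD11b+ B cells. PM libraries had 76.3, 86.4 and 84.3 FPKM of *Lyn*, more than of any other of the 9 genes. The groups did not overlap for *Lyn*, whereas the B cell groups overlapped for *Blk*.

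*Syk*, the kinase that docks on the phosphorylated tails, was at 126, 119.9 and 156 FPKM in CD11b- libraries, 104, 116 and 114 in CD11b+ libraries and 43.4, 23.1 and 31.3 in PM libraries. The adaptor gene *Blnk* was at 104, 99.1 and 137 FPKM in CD11b- libraries, 106, 103 and 112 in CD11b+ libraries and 9.15, 5.03 and 9.07 in PM libraries. The B cell groups did not overlap for *Syk*, where 119.9 and 116 FPKM were nearest, and overlapped for *Blnk*. *Btk*, which encodes the Tec-family kinase lost in X-linked agammaglobulinaemia, was at 90.9, 98.1 and 109.9 FPKM in CD11b- libraries, 91.1, 80.9 and 74.4 in CD11b+ libraries and 36.8, 33.3 and 29.6 in PM libraries. *Plcg2* was at 109.3, 88.9 and 97.4 FPKM in CD11b- libraries, 84.0, 86.4 and 63.5 in CD11b+ libraries and 22.0, 29.1 and 29.8 in PM libraries. The CD11b+ values of *Btk* reached into the CD11b- range in 1 library, and those of *Plcg2* stayed below it. CD11b- library 3, with the high precursor marker sum, held the highest CD11b- value of *Cd79a*, *Cd79b*, *Blk*, *Syk*, *Blnk* and *Btk* and the lowest of *Cr2*, and the part of the precursor markers in these values was not tested.

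Ordered by mean FPKM, the CD11b- group ran *Cd79a*, *Cd79b*, *Syk*, *Lyn*, *Blk*, *Blnk*, *Btk*, *Plcg2* and *Cr2*. The libraries of *Cd79a*, *Cd79b* and *Cr2* were clear of their neighbours, and from *Syk* to *Plcg2* each gene overlapped the next. In CD11b+ B cells the order was the same at both ends, *Blk*, *Syk*, *Lyn* and *Blnk* overlapped in turn, and *Btk* and *Plcg2* formed a lower overlapping pair clear of *Blnk*. In PMs *Lyn* came first and clear of the rest, followed by *Btk*, *Syk*, *Plcg2*, *Cd79a* and *Cd79b*, each overlapping the next, then by *Blnk* and *Blk*, and *Cr2* came last.

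CD11b+ and CD11b- B cells were compared to ask whether B cells bearing the myeloid marker held less or more of the receptor's signalling machinery at the RNA level. No gene of the 9 passed the test, and none was higher by mean in CD11b+ B cells. Group means in CD11b+ B cells were between 74.6% (*Cd79b*) and 94.4% (*Blnk*) of those in CD11b- B cells. In this bulk RNA, fewer cells of a type and less RNA per cell cannot be told apart. In the limma fit of log2(FPKM + 1), the log2 fold change was lowest for *Cd79b*, at -0.42 (SE 0.23, 95% interval -0.96 to 0.11, adjusted p = 0.688), from 2019.9 ± 82.7 FPKM (SD, n = 3) in CD11b- to 1508 ± 136 (SD, n = 3) in CD11b+ B cells.

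For *Plcg2*, at 98.5 ± 10.2 and 78.0 ± 12.6 FPKM (SD, n = 3 each), it was -0.34 (SE 0.16, 95% interval -0.71 to 0.03, adjusted p = 0.676). *Btk* (99.6 ± 9.60 and 82.1 ± 8.42 FPKM) and *Lyn* (133 ± 2.54 and 110.3 ± 8.27 FPKM) had log2 fold changes of -0.28 (SE 0.14, adjusted p = 0.680) and -0.27 (SE 0.12, adjusted p = 0.672). *Syk* (134 ± 19.3 and 111 ± 6.20 FPKM) and *Cd79a* (2434 ± 168 and 2051 ± 184 FPKM) followed at -0.26 (SE 0.15, adjusted p = 0.697) and -0.25 (SE 0.25, adjusted p = 0.729). These 6 differences stayed under 1.5-fold of means, and each 95% interval included 0. *Blk* (129 ± 23.5 and 119 ± 23.7 FPKM), *Blnk* (114 ± 20.8 and 107 ± 4.28 FPKM) and *Cr2* (34.0 ± 7.47 and 32.0 ± 1.87 FPKM) were closest to 0, at -0.12 (SE 0.20), -0.07 (SE 0.16) and -0.06 (SE 0.18), with adjusted p of 0.834, 0.891 and 0.916. The 95% intervals ran no lower than -0.96 (*Cd79b*) and no higher than 0.35 (*Cr2*), so a log2 fold change of -1 or 1 lay outside them for each of the 9 genes.

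The test called 0 of the 9 genes, with 0.0689% of all 21778 genes called. All 15 of those genes were higher, whereas edgeR without a filter called 416 higher and 155 lower, DESeq2 called 328 and 64, and limma without a filter called 2 and 4. At an unadjusted p under 0.05 the count was also 0, and edgeR and DESeq2 on whole reads called 0 of the 9 as well. All 9 log2 fold changes were below 0, against 44.9% of all genes tested and 52.9% of the 2934 genes with a mean of at least 20 FPKM. Their median was -0.26, beside 0.03 over all genes. The CD11b+ libraries lay wholly below the CD11b- libraries for 5 genes (*Cd79a*, *Cd79b*, *Lyn*, *Syk* and *Plcg2*), which held for 6.32% of all genes and for 12.8% of those at 20 FPKM or more. For each of the 5, the exact two-sided permutation test of mean FPKM gave p = 0.1, the smallest that 3 libraries against 3 can give. The sign was not fixed for 3 genes, since leaving out 1 library turned *Cr2* (0.07 without CD11b- library 2), *Blk* (0.02 without CD11b- library 3, 0.05 without CD11b+ library 1) and *Blnk* (0.08 without CD11b- library 3). For 2 other genes 1 library carried much of the value, with *Syk* at -0.14 without CD11b- library 3 and *Plcg2* at -0.20 without CD11b+ library 3.

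The 4 B cell markers were read beside these values. None passed the test, 3 of 4 had a log2 fold change below 0, and their median was -0.26. The 10 neutrophil markers all had log2 fold changes above 0, with a median of 4.16. Macrophage markers summed to 73.2 to 273 FPKM in CD11b+ against 31.6 to 44.4 in CD11b- libraries, with 7 of 7 tested above 0 on the log2 scale. Plasma cell markers summed to 252 to 635 against 101 to 179 FPKM (5 of 6 above 0) and B1 cell markers to 39.4 to 82.0 against 7.70 to 19.4 FPKM (5 of 5). Erythroid markers summed to 32.6 to 44.4 against 1.73 to 23.2 FPKM (5 of 5), and none of these 4 lists had a gene past the test. The B cell precursor markers moved the same way as the 9 genes, with 8 of 8 log2 fold changes below 0 and a median of -0.62, although the groups overlapped for each marker and none passed the test. Among mature follicular markers 5 of 7 were below 0 (median -0.12), as were 3 of 5 marginal zone markers (median -0.17), and none passed. The part of any of these lists in the values of the 9 genes was not tested.

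**Figure D2:**
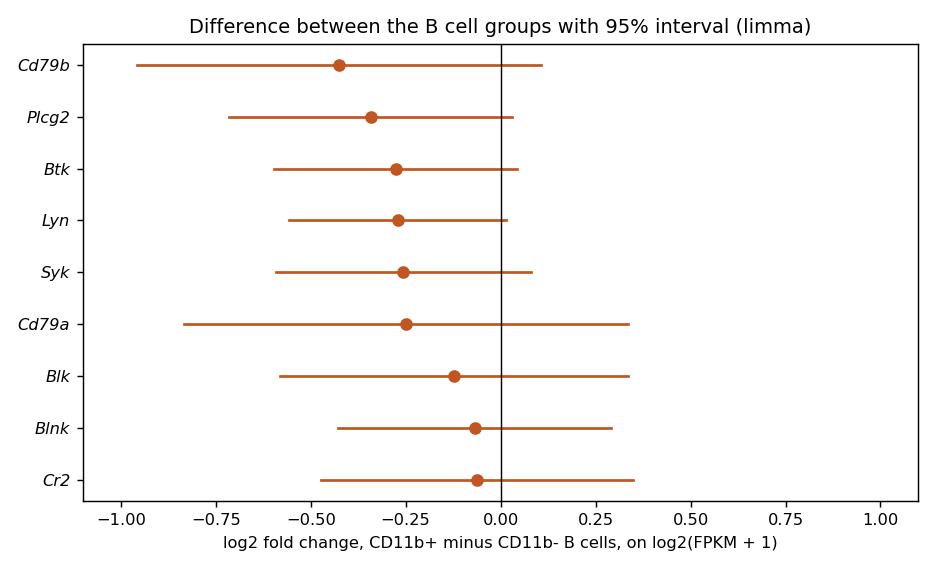
Log2 fold change of log2(FPKM + 1) in CD11b+ against CD11b- B cells for the 9 genes, with points for the limma estimate and bars for its 95% interval, and a line at 0. All points lie between -0.42 and -0.06 and every bar crosses 0.

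Ratios within a library do not depend on its total. CD79A and CD79B form a heterodimer, and the ratio of *Cd79b* to *Cd79a* FPKM was 0.874, 0.800 and 0.820 in CD11b- libraries against 0.744, 0.785 and 0.680 in CD11b+ libraries. The CD11b+ ratios all lay below the CD11b- ratios, with means of 0.831 ± 0.0380 and 0.736 ± 0.0528 (SD, n = 3 each). The difference in the log2 ratio was -0.18, with p = 0.1 in an exact two-sided permutation test, the smallest p possible, and it lay between -0.22 and -0.12 with 1 library left out. PM libraries had ratios of 0.983, 0.831 and 1.02.

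The ratio of *Blk* to *Lyn* FPKM was 0.824, 0.925 and 1.17 in CD11b- libraries and 0.778, 1.21 and 1.29 in CD11b+ libraries. The groups overlapped, and the log2 ratio differed by 0.15 (exact two-sided permutation test, p = 0.7). Leaving out 1 library moved that difference between 0.0102 (without CD11b+ library 3) and 0.38 (without CD11b+ library 1). In PM libraries, where *Lyn* far exceeded *Blk*, it was 0.148, 0.0426 and 0.0281.

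**Figure D3:**
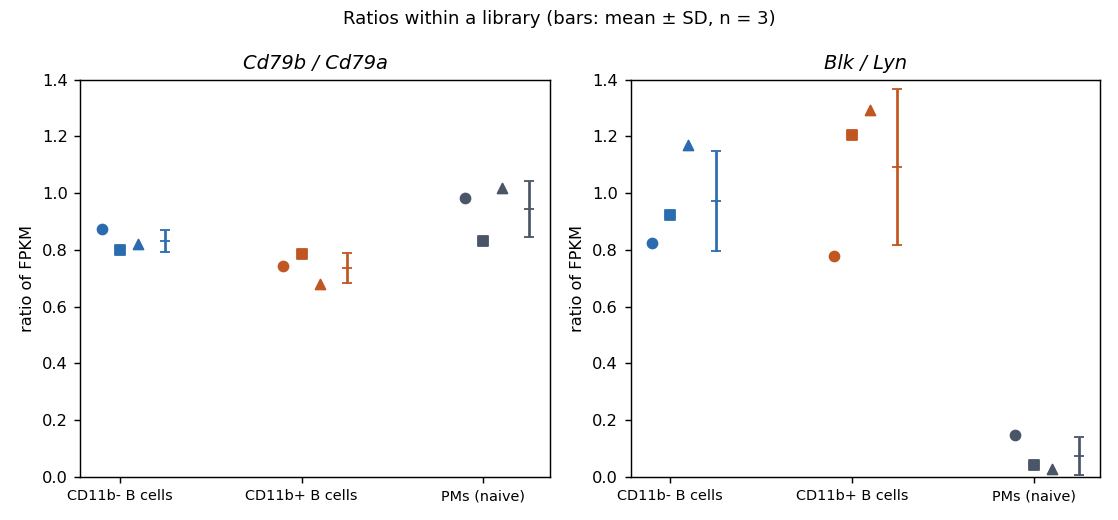
Ratios of FPKM within each library, *Cd79b* to *Cd79a* in the left panel and *Blk* to *Lyn* in the right, with a symbol for each replicate and bars for the mean ± SD of each group. The CD11b+ values of the first ratio (0.680 to 0.785) lie below the CD11b- values (0.800 to 0.874), and those of the second overlap.

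The comparisons with PMs set the same genes beside a macrophage. Both use the same 3 PM libraries, so their values are given side by side and are not independent. The genes fell into 2 sets by their PM level as a share of the B cell level. As a percentage of the CD11b- mean, the PM mean was 0.572% for *Cr2*, 1.11% for *Cd79a*, 1.27% for *Cd79b*, 4.47% for *Blk* and 6.83% for *Blnk*. It was 24.3% for *Syk*, 27.4% for *Plcg2*, 33.4% for *Btk* and 61.8% for *Lyn*. The receptor chains, the coreceptor, the B-lineage kinase and the B cell adaptor thus made up the set with low shares, and the kinases and the phospholipase that macrophages also use made up the set with high shares. The sets are not split by the PM level itself, since *Cd79a* and *Cd79b* overlapped *Plcg2* in PMs.

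In CD11b- B cells against PMs, all 9 genes rose, with 25.8% of all 20985 genes called higher and 11% called lower. In CD11b+ B cells against PMs, 8 of 9 rose, with 21.5% of all 22102 genes called higher and 8.78% called lower. No library of either B cell group overlapped a PM library for any of the 9 genes, as held for 36.1% and 34.3% of all genes in the higher direction. Exact permutation tests gave p = 0.1 for each gene in both comparisons.

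*Cd79a* had the largest log2 fold change of log2(FPKM + 1), 6.47 (SE 0.22) in CD11b- and 6.22 (SE 0.24) in CD11b+ B cells, from a PM mean of 27.0 ± 7.37 FPKM (SD, n = 3). *Cd79b* followed at 6.29 (SE 0.23) and 5.87 (SE 0.25), with 25.6 ± 8.04 FPKM in PMs. For *Cr2*, at 0.195 ± 0.065 FPKM in PMs, the log2 fold changes were 4.85 (SE 0.24) and 4.79 (SE 0.22). On this scale the added 1 holds the *Cr2* value down, and the ratio of its means was 175 and 165. *Blk* was higher by 4.48 (SE 0.45) and 4.36 (SE 0.45) on the log2 scale, and *Blnk* by 3.74 (SE 0.25) and 3.67 (SE 0.24). The adjusted p was at most 0.000245 for these 5 genes in both comparisons.

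The genes with high PM shares differed less, which follows from how the sets were split. *Syk* had log2 fold changes of 2.04 (SE 0.24, adjusted p = 0.000602) in CD11b- and 1.79 (SE 0.24, adjusted p = 0.00107) in CD11b+ B cells, from 32.6 ± 10.2 FPKM in PMs. *Plcg2* had 1.84 (SE 0.18) and 1.495 (SE 0.21), with adjusted p of 0.000204 and 0.00125, from 27.0 ± 4.32 FPKM in PMs. *Btk* had 1.56 (SE 0.16) and 1.28 (SE 0.18), with adjusted p of 0.000275 and 0.00125, from 33.2 ± 3.65 FPKM. These 3 genes were between 2.47 and 4.11 times higher by mean FPKM. Under median-ratio scaling, which divides each library by the median over genes of its ratio to the average library, their log2 fold changes kept their call but shrank to 1.49 (*Syk*), 1.29 (*Plcg2*) and 1.01 (*Btk*) in CD11b- and to 1.23, 0.94 and 0.73 in CD11b+ B cells.

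*Lyn* was the exception. Its log2 fold change was 0.69 (SE 0.14, adjusted p = 0.00736) in CD11b- and 0.42 (SE 0.17, adjusted p = 0.102) in CD11b+ B cells, from 82.3 ± 5.31 FPKM in PMs, and it ranked 602 among all genes in PMs. The median of all genes tested was itself shifted by 0.24 and 0.25 in these comparisons. With median-ratio scaling, which moved that median to 0.06 and 0.11, *Lyn* came to 0.13 (adjusted p = 0.582) in CD11b- and -0.14 (adjusted p = 0.606) in CD11b+ B cells. The direction of *Lyn* against PMs in CD11b+ B cells, and its call in CD11b- B cells, therefore depend on the scaling, while the other 8 genes kept direction and call under every alternative run. The same scaling moved the split of higher and lower calls over all genes from 5404 and 2306 to 3333 and 3153 for CD11b- B cells, and from 4760 and 1940 to 2769 and 2660 for CD11b+ B cells.

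PM library 1 had the highest PM level of *Cd79a*, *Cd79b*, *Blk*, *Syk*, *Blnk* and *Btk*. The 4 B cell markers summed to 8.25 FPKM there, against 5.55 and 7.77 in the other PM libraries. *Pax5* and *Cd22* were highest in PM library 1, *Ms4a1* in library 3 and *Ebf1* in library 2. By mean, PMs held these markers at between 0.783% (*Ebf1*) and 1.57% (*Pax5*) of their level in CD11b- B cells, a range that holds the mean PM share of *Cd79a* and *Cd79b*. The part of B cells in the PM values was not tested.

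**Figure D4:**
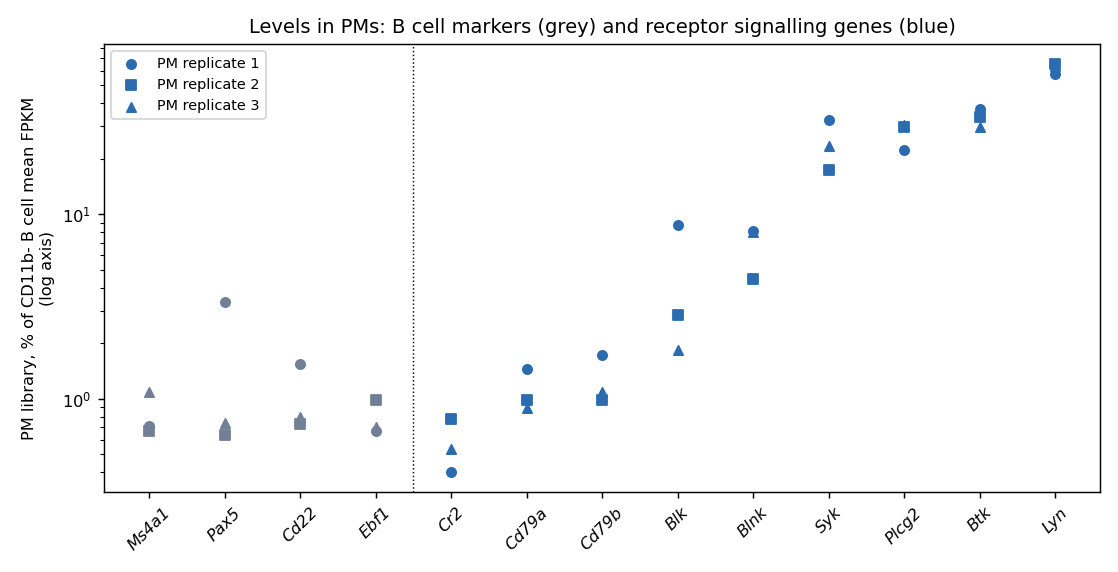
Level of each gene in each PM library as a percentage of its mean in CD11b- B cells (log axis), with a symbol for each of the 3 PM libraries, beside the same for 4 B cell markers in grey. *Cd79a* and *Cd79b*, with means of 1.11% and 1.27%, lie at the height of the B cell markers, and *Syk*, *Plcg2*, *Btk* and *Lyn*, with means of 24.3% to 61.8%, lie above the other genes.

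The other genes of the pathway were read from a list of 121 genes in 11 roles. One role held 7 myeloid ITAM genes, which stand behind macrophage receptors and not behind the B cell receptor, and they are included in the counts. Between CD11b+ and CD11b- B cells, 1 of 120 tested rose, 0 fell, and the median log2 fold change was -0.09. With DESeq2 the counts were 7 and 1, and with edgeR without a filter 8 and 4. The gene that rose was *Fcer1g*, which encodes the ITAM-bearing Fc receptor gamma chain. It was at 1.82, 2.03 and 1.28 FPKM in CD11b- libraries and at 40.6, 53.9 and 35.5 in CD11b+ libraries (log2 fold change 4.02, SE 0.21, adjusted p = 0.00115). All CD11b+ libraries lay above all CD11b- libraries, and all lay under the 1293, 1925 and 1280.4 FPKM of PMs. Its adjusted p was 0.0524 without a filter on FPKM and 0.656 with a replicate block by description number, at log2 fold changes of 4.02 and 3.94, and it passed the test in every other alternative run. The rise of *Fcer1g* stood beside that of the neutrophil markers (10 of 10 above 0, median log2 fold change 4.16) and beside higher macrophage marker sums, and their part in it was not tested.

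*Fcer1g* was not alone in its group of 7 myeloid ITAM genes. All 6 that were tested had log2 fold changes above 0, with a median of 0.88. On whole reads, without the 1 added to FPKM, the median was 4.43 with edgeR (5 tested) and 4.49 with DESeq2 (7 tested). In 5 of the 7 the CD11b+ libraries lay wholly above the CD11b- libraries, as held for 8.63% of all genes. *Fcer1g* alone passed the limma test, whereas DESeq2 and edgeR without a filter each called 5 of the 7 higher. *Tyrobp*, named after its values were seen, was at 38.2, 57.3 and 55.4 FPKM in CD11b- and 74.1, 94.1 and 76.3 in CD11b+ libraries (log2 fold change 0.70, limma adjusted p = 0.408). The neutrophil and macrophage markers stood beside these values too, and their part was not tested.

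The 5 pathway genes with the smallest p among those lower in CD11b+ B cells did not pass the limma test. Without a filter, edgeR called 4 pathway genes lower, 1 each among the adaptors, the PI3 kinase and AKT genes, the inhibitors and the early response genes. *Egr1*, an early transcription factor induced by receptor signals, was at 28.01, 25.5 and 30.2 FPKM in CD11b- and 15.9, 18.7 and 14.9 in CD11b+ libraries (log2 fold change -0.73, adjusted p = 0.216). The 12 early response genes went both ways, with 8 log2 fold changes below 0 and 4 above, the highest at 0.999. DESeq2 called 1 of these 12 higher and 1 lower. Among the 14 adaptor genes, 9 were below 0 and 5 above, the highest at 0.943. *Pik3ap1* (BCAP, an adaptor that recruits PI3 kinase) was at 87.9 ± 17.7 and 52.8 ± 10.9 FPKM (SD, n = 3 each, adjusted p = 0.453). The inhibitor genes *Inpp5d* (SHIP-1) and *Cd72* were at 47.5 ± 3.49 and 35.6 ± 1.92 FPKM and at 319.9 ± 94.7 and 191.8 ± 23.0 FPKM (adjusted p of 0.499 and 0.507). *Pik3cg*, a catalytic subunit of PI3 kinase, was at 13.5 ± 4.47 and 7.58 ± 1.44 FPKM (adjusted p = 0.557). In all 5 of these lower genes the CD11b+ libraries lay wholly below the CD11b- libraries. That held for 26 of the 121 listed genes, against 6.32% of all genes and 12.8% of those at 20 FPKM or more. In 12 of the 121 they lay wholly above, a share near the 8.63% of all genes, and 5 of these 12 were myeloid ITAM genes.

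Against PMs the pathway moved in both directions. In CD11b- B cells 60 genes rose and 24 fell of 121, with a median of 0.60, and in CD11b+ B cells 49 rose and 21 fell of 120, with a median of 0.53. In both comparisons the genes that fell included the 7 myeloid ITAM genes. Over all genes 25.8% and 21.5% were called higher and 11% and 8.78% lower. Under median-ratio scaling the pathway split was 41 higher and 31 lower in CD11b- and 33 and 28 in CD11b+ B cells, so the balance of directions depends on the scaling. *Ighm* and *Ighd*, the heavy chain constant genes of IgM and IgD, had log2 fold changes of 6.04 and 6.93 in CD11b- and 6.40 and 6.86 in CD11b+ B cells. The remaining gene of the receptor and coreceptor group, *Cd81*, named after its values were seen, was at 79.6 to 94.9 FPKM in CD11b-, 68.9 to 94.6 in CD11b+ and 91.2 to 119 in PM libraries and did not pass the test, though it was called lower with median-ratio scaling, edgeR and DESeq2.

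Of 18 inhibitors, 11 rose in both comparisons, while 4 fell in CD11b- and 3 in CD11b+ B cells. *Cd72*, *Cd22* and *Siglecg*, which encode inhibitory receptors of B cells, had log2 fold changes of 7.29, 6.10 and 5.99 in CD11b- and 6.58, 6.02 and 5.72 in CD11b+ B cells. *Dok2*, an inhibitory adaptor of myeloid and T cells, fell by 6.27 and 5.85. *Rasgrp1*, an exchange factor for Ras, rose by 4.56 and 4.13. Among 11 genes of the protein kinase C branch to NF-kB, 10 rose in CD11b- and 6 in CD11b+ B cells, and none fell. With median-ratio scaling 6 and 4 of them rose and none fell. Of the early response genes, 12 tested in CD11b- and 11 in CD11b+ B cells, 5 rose in both, with *Cd83* at 5.91 and 5.50 and *Dusp2* at 5.51 and 5.20. *Junb* and *Ier2* fell in both and *Fos* in CD11b- B cells, named after their values were seen.

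The 7 myeloid ITAM genes all fell in both comparisons, the reverse of *Cd79a* and *Cd79b*. *Fcer1g* fell by 9.10 in CD11b- and by 5.08 in CD11b+ B cells, *Fcgr3* by 8.47 and 6.86, and *Tyrobp*, which encodes DAP12, by 5.96 and 5.26. *Fcgr4*, *Clec7a* and *Fcgr1* fell by 5.69, 5.25 and 3.96 in CD11b- and by 4.66, 4.504 and 3.30 in CD11b+ B cells. The added 1 holds these falls down, since the CD11b- means were 0.0546, 0.0191 and 0.0307 FPKM, against 53.6, 38.3 and 15.5 in PMs. For CD11b- B cells the median of the 7 genes was -5.69 in the limma fit and -10.3 with DESeq2 on whole reads. *Lcp2*, which encodes SLP-76, the counterpart of BLNK in T cells and myeloid cells, fell by 5.04 and 4.10. It was at 43.8, 29.7 and 39.6 FPKM in PMs against at most 0.308 in CD11b- and 2.55 in CD11b+ libraries, the reverse of *Blnk*.

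**Figure D5:**
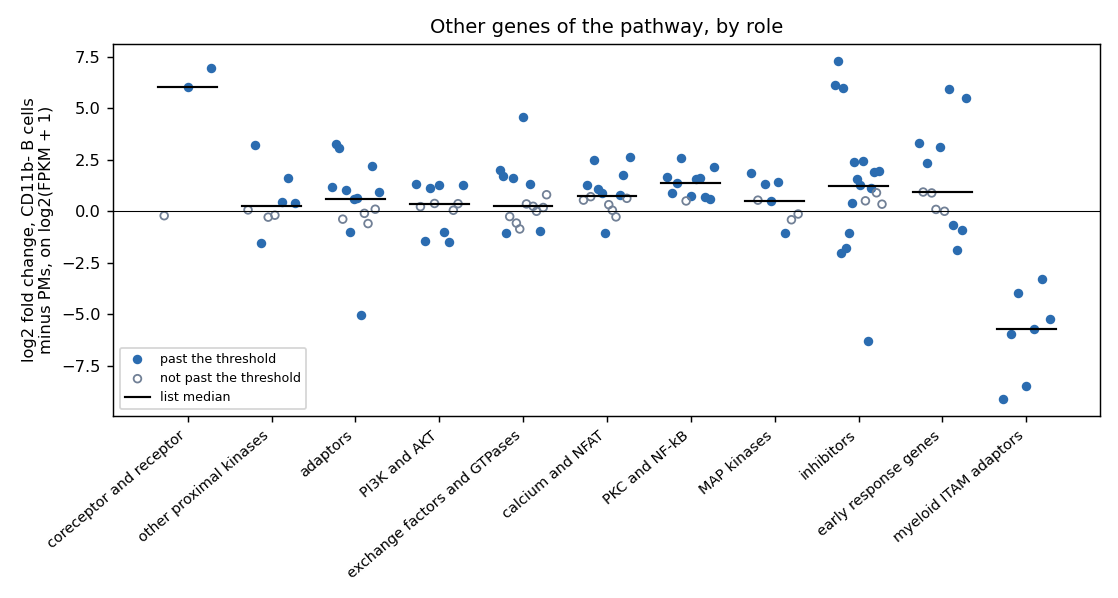
Log2 fold change of log2(FPKM + 1) in CD11b- B cells against PMs for the other 121 pathway genes by role, with a filled point for each gene past the threshold, an open point for each other gene and a line for each role's median. The medians run from -5.69 for the myeloid ITAM adaptors, all below 0, to 6.04 for the coreceptor and receptor genes.

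Genes whose pattern over the 9 libraries was most like that of 3 of the 9 genes were found by the root mean square difference of centred log2(FPKM + 1), among 7327 genes with a mean of at least 5 FPKM. For *Cd79a* they were *Ly6d* (0.15), *Cd22* (0.17), *Cd79b* (0.17), *Ltb* (0.19) and *Srpk3* (0.19). *Ly6d* was at 3498 FPKM in CD11b-, 2802 in CD11b+ and 34.1 in PM libraries by mean, and its nearness to *Cd79a* was closer than that of the partner chain *Cd79b*. For *Cr2* they were *Lta* (0.11), *Cd200* (0.17), *Rhof* (0.19), *Treml2* (0.21) and *Mir5104* (0.21). For *Syk* they were *Zfp317* (0.13), *Rnf167* (0.13), *Slc28a2* (0.13), *Crebrf* (0.14) and *Ripor2* (0.14).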

How the data were processed

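RNA was measured by SMART-seq HT in 3 groups of 3 libraries, assigned from the sample labels. The authors trimmed reads (Trim Galore 0.4.4, Trimmomatic 0.36 and cutadapt 1.16 are in the submitters' processing notes), mapped them with STAR 2.7.2b and counted them with featureCounts 1.6.1. Their methods name GRCm38, the processing notes name GRCm38 and GRCm39, and which of these the table's positions use was not settled. The FPKM values that the authors deposited divide these counts by exon length and by reads on genes. The authors' second table, counts divided by a size factor as a normalized signal, was used only to check reads. Both tables gave whole reads for 100% of values within 0.05 of a read. Of the columns, 0 belonged to no sample. PCR copies were not marked by molecular identifiers.

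The 9 genes and all lists were chosen with earlier results of these data known, and some list genes are not reported here. Values were tested two-sided as log2(FPKM + 1) with limma 3.58.1 in R 4.3.3 (lmFit, then eBayes with its trend option), using the 6 libraries compared and genes averaging 0.05 FPKM or more, Benjamini-Hochberg adjustment over all genes and a threshold of 0.05. Exact two-sided permutation tests used scipy 1.17.1. Named pathway genes were, per comparison and direction, up to 8 past the threshold with the largest log2 fold change and a mean of at least 1 FPKM in the higher group, or, where none passed, the 5 with the smallest p. Tests were tried on simulated data. The alternatives were quantile normalization, median-ratio scaling, a replicate block, a fit of all 9 libraries, no trend in eBayes, no immunoglobulin genes in FPKM, a pseudocount of 0.1, a filter at 1 FPKM or none, edgeR 4.0.16 (quasi-likelihood test) and DESeq2 1.42.0 on whole reads, and each library left out. Positions printed are those of GENCODE M21 on GRCm38, by gene identifier, and equal the table's start for *Lyn* alone among the 9, and overlaps between genes come from the table's own positions.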

Additional observations from a re-analysis of the deposited data

How the results depend on the processing

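The 9 genes gave 0 calls between the B cell groups in all alternatives, and 8 of them kept direction and call against PMs throughout. Between the B cell groups the sign reversed for *Cr2* with a replicate block by description number (0.11) and without CD11b- library 2, for *Blk* without CD11b- library 3 (0.0184) or CD11b+ library 1, and for *Blnk* without CD11b- library 3. With 1 library left out they ranged from -0.24 to 0.0738 (*Cr2*), from -0.22 to 0.0530 (*Blk*) and from -0.16 to 0.0755 (*Blnk*). Against PMs, *Lyn* in CD11b+ B cells was -0.14 with median-ratio scaling, -0.0867 with edgeR, -0.0268 with edgeR without a filter and -0.0925 with DESeq2, and it passed the test with all 9 libraries in one fit (adjusted p = 0.0389, range 0.0389 to 0.948). In CD11b- B cells *Lyn* lost its call at 0.13, 0.17, 0.25 and 0.15 under the same 4 settings (adjusted p range 0.00306 to 0.610). The cause was not tested.

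Pathway genes called between the B cell groups, 1 in the limma fit, were 0 without a filter, 12 with edgeR without a filter (4 lower) and 8 with DESeq2 (1 lower). Over all genes the count of 15 became 37 with a pseudocount of 0.1 (3 lower), 6 without a filter (4 lower), 31 with a minimum mean FPKM of 1, 35 with all 9 libraries (4 lower), 9 with quantile normalization, 42 with edgeR, 571 with edgeR without a filter (155 lower), 392 with DESeq2 (64 lower), and 3 (without CD11b- library 1) to 40 (without CD11b+ library 3) with a library left out. It was also 4, 7, 5 and 5 without CD11b- library 2, CD11b- library 3, CD11b+ library 1 or CD11b+ library 2. Against PMs, no filter gave 4199 calls in place of 6700 for CD11b+ and 4940 in place of 7710 for CD11b- B cells, where more genes were tested.

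Same-numbered CD11b+ and CD11b- libraries had correlations of 0.29, -0.02 and 0.21 between their deviations, so the title numbers were not taken as pairs. The 2 positive values belong to the pairs that also share a description number (1 and 5), and differently numbered libraries had correlations from -0.30 to 0.14. With 2 such pairs and no label that says what the number marks, whether they are paired is not settled. A replicate block by title number gave 16 calls over all genes and 0, 8 and 9 calls among the 9 genes in the 3 comparisons, and an exact permutation p = 0.25 for the ratio of *Cd79b* to *Cd79a*, the smallest that 3 blocks allow, so that test was void. A block by description number, which leaves the unmatched library of each group without weight, gave 0 calls in place of 15 over all genes and 0 in place of 1 among pathway genes. With 3 libraries a group, unblocked exact tests cannot go below p = 0.1.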
